A study of Sus scrofa domesticus with 4 samples.

Results

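The progesterone and estrogen receptors were followed in the anterior pituitary of the pig at the time when a pregnancy is first recognised. The members were the 5 genes PGR, PGRMC1, PGRMC2, ESR1 and ESR2, out of 2459 genes that could be named on the array. Their probes were found by matching the RefSeq transcript accession of each probe, without its version, to the pig gene table, which gave 13 probes. PGR and ESR2 had 1 probe each, PGRMC1 had 3, and PGRMC2 and ESR1 had 4 each.

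Pituitaries were taken from 8 gilts (females yet to farrow) of about 110 kg, a cross of Large White x Polish Landrace. The pregnant gilts (n = 4) were mated naturally and killed on days 12 to 13 of pregnancy, and the cyclic gilts (n = 4) were killed on days 12 to 13 of the estrous cycle. The labels record no drug or hormone for either group. Each of 4 two-colour arrays held RNA of 1 pregnant and 1 cyclic gilt, so that every probe gave a log2 ratio of pregnant over cyclic 4 times. The sources used here do not give how a pregnant gilt was matched with a cyclic one.

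Progesterone and estradiol act on the pituitary through nuclear receptors, which bind the hormone, pair up and switch target genes on or off. PGR encodes the nuclear progesterone receptor, and ESR1 and ESR2 encode estrogen receptors alpha and beta. In many tissues PGR is itself a classical target gene of estrogen receptor alpha. PGRMC1 and PGRMC2 are small haem-binding membrane proteins of the cytochrome b5 fold, tied to progesterone responses that do not need PGR, and to sterol and haem metabolism. In the gonadotrophs and lactotrophs of the anterior lobe these steroids adjust the response to gonadotropin-releasing hormone and the output of gonadotropins and prolactin.

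Of the 13 probes, 12 were well above background on at least 1 array, and ESR2 was not. Tested were 7 probes of 4 genes, and 6 were not: 4 because the scan software marked too many of their spots as outliers, and 2 because they were too dim. A probe entered the test if it was well above background on all 4 arrays in at least 1 group and had an unmarked spot on at least 3 arrays. Outlier marks joined the flags of the software for non-uniform spots and for population outliers, in either channel. They fell on 14 of the 52 member spots (26.9%), against 3.61% to 5.19% of all spots on an array. All 14 lay on PGRMC1, with 7 of 12 spots, and PGRMC2, with 7 of 16 spots.

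PGR had a positive ratio on the 4 arrays and PGRMC1 a negative one on the 4 arrays for each of its probes, while PGRMC2 and ESR1 had ratios of both signs. None of the 7 tested probes passed limma with Benjamini-Hochberg adjustment over 21616 probes, and their adjusted p ran from 0.234 to 0.916. The background was no different: 0% of all tested probes had an adjusted p under 0.05. At an unadjusted limma p under 0.05 stood 2 of the 7 member probes, 1 higher and 1 lower in pregnant gilts. Of all tested probes 10.4% were so listed as higher and 7.62% as lower, 18.1% together, and with 7 probes the members' count is not read as more than this background. In RNA from a whole gland, a change in the number of receptor-bearing cells and a change of RNA per cell cannot be told apart.

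**Figure D1:**
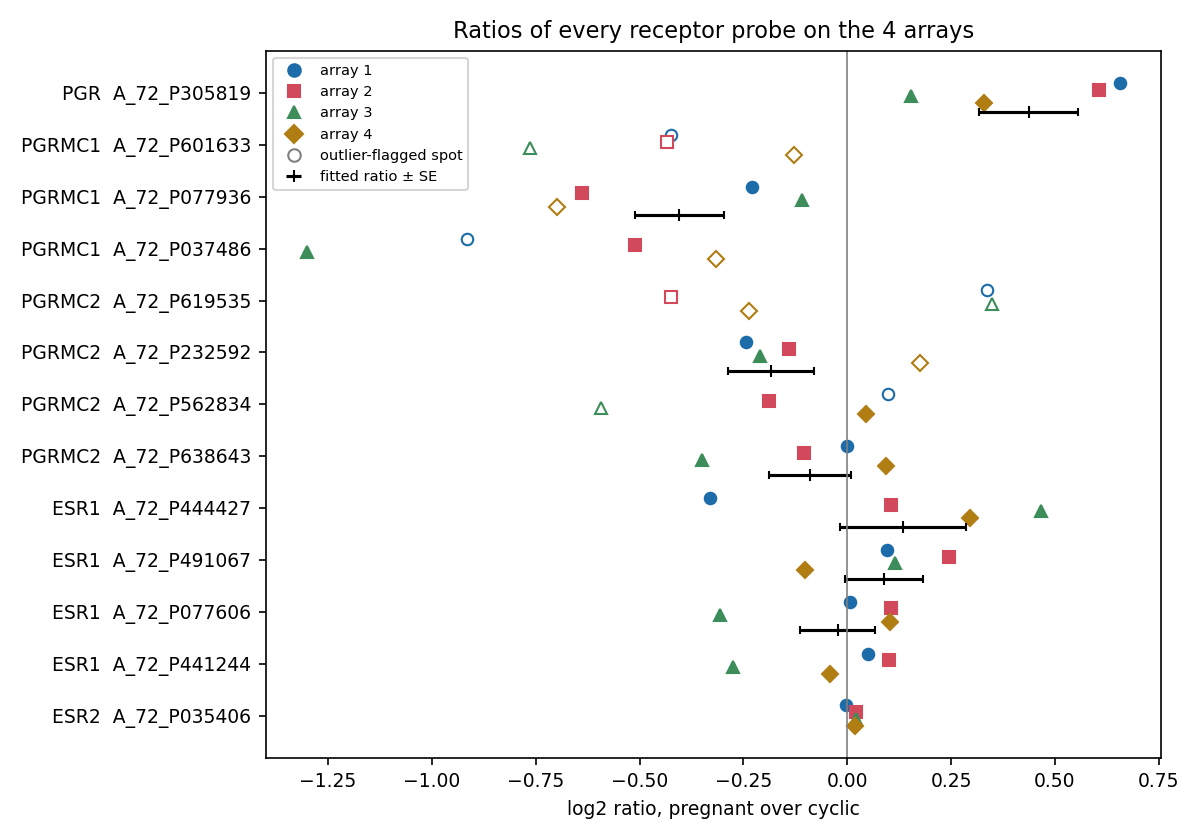
Log2 ratio of pregnant over cyclic gilts for the 13 probes (rows), with 1 symbol per array, open where the spot was marked as an outlier, and the fitted ratio with its SE as a bar for the 7 tested probes. The 4 PGR symbols lie right of 0 and the 12 PGRMC1 symbols left of it, while PGRMC2 and ESR1 lie on both sides.

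The nuclear progesterone receptor was measured by 1 probe, A_72_P305819 (PGR, NM_001166488), which was well above background in all 8 gilts. Its normalised log2 intensity was 7.87, 7.62, 7.87 and 8.04 in the pregnant gilts of arrays 1 to 4, against 7.21, 7.01, 7.71 and 7.71 in their cyclic partners. Each pregnant gilt thus lay above the cyclic gilt on its own array, but the groups overlapped, since the lowest pregnant gilt, on array 2, lay below the cyclic gilts of arrays 3 and 4. Groups that did not overlap were found for 0 of the 7 tested member probes, against 2.18% of all tested probes with the pregnant gilts on top and 1.1% with them below. The log2 ratios were 0.66, 0.61, 0.15 and 0.33 on arrays 1 to 4.

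The fitted log2 ratio of PGR was 0.44 ± 0.24 (SD, n = 4), a 1.35-fold higher level in pregnant gilts. The SE was 0.12 and the 95% interval of the limma fit ran from 0.13 to 0.75. With an unadjusted limma p of 0.0154 and an adjusted p of 0.234, the difference did not pass. A positive ratio on every array measured was found for 15% of all tested probes. The signs of the normalised ratios did not divide by dye. Arrays 1 and 3 had the pregnant gilt in Cy3, arrays 2 and 4 had her in Cy5, and the fit gave a dye effect of 0.03.

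PGR was a dim spot. Its median raw signal was 142.5 to 268.5 in pregnant gilts and 63 to 199.5 in cyclic gilts, over a local background of 29.5 to 41.5. On arrays 1 and 3, with the pregnant gilt in Cy3, her raw signal was the lower one, 142.5 against 191 and 189 against 199.5. On arrays 2 and 4, with her in Cy5, it was 268.5 against 63 and 218.5 against 82. The positive ratios of arrays 1 and 3 thus appeared only after the dyes were normalised within the array. Its ratio was 0.58 with no background correction and 0.73 with the background subtracted, against 0.44 with the normexp offset of 50 used here. It was 0.69 both with the processed signals of the scan software and in the deposited value table, which differ in normalisation as well. None of the 4 passed limma (adjusted p of 0.211, 0.296, 0.219 and 0.22).

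**Figure D2:**
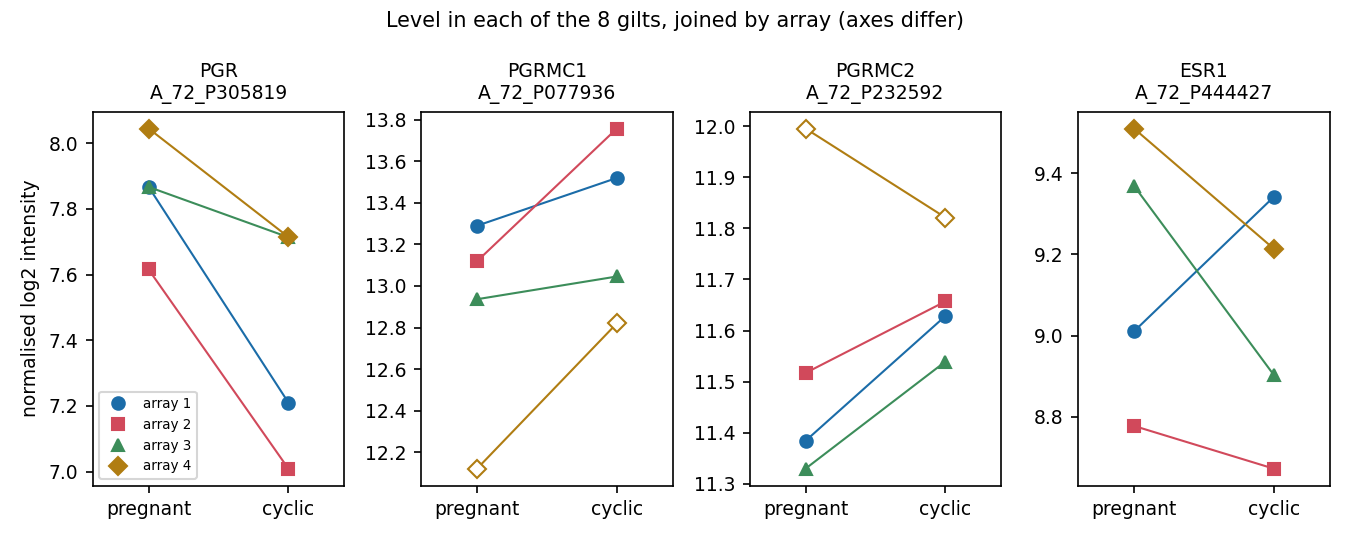
Normalised log2 intensity in the 8 gilts for the representative probe of each detected member, pregnant gilts left and cyclic gilts right, with a line for each array and open symbols for spots marked as outliers. The PGR lines and the PGRMC1 lines run in opposite directions on the 4 arrays, and the y axes differ between panels.

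PGRMC1, a membrane-associated progesterone receptor component, had ratios of the reverse sign. Its representative probe A_72_P077936 (PGRMC1, NM_213911) had log2 intensities of 13.29, 13.12, 12.94 and 12.12 in the pregnant gilts of arrays 1 to 4, against 13.52, 13.76, 13.05 and 12.82 in their cyclic partners. Every pregnant gilt lay below her partner, and the groups overlapped. The ratios were -0.23, -0.64 and -0.11 on arrays 1 to 3, and -0.70 on array 4, whose spot was marked as an outlier and left out of the fit.

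The fitted log2 ratio of PGRMC1 was -0.40 ± 0.28 (SD, n = 3), 1.32-fold lower in pregnant gilts, with a 95% interval of -0.71 to -0.10. The unadjusted limma p was 0.0209 and the adjusted p 0.238. With 3 arrays the fit leans on array 2, the only one of them with pregnant RNA in Cy5. The value was -0.17 without array 2, over the remaining 2 arrays, and -0.25 with median centring in place of loess.

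The other PGRMC1 probes were not tested, because A_72_P601633 carried outlier marks on the 4 arrays and A_72_P037486 on arrays 1 and 4. Their ratios are given as read. A_72_P601633 had -0.42, -0.43, -0.76 and -0.13 on arrays 1 to 4. A_72_P037486 had -0.92, -0.51, -1.30 and -0.32, which included the most negative ratio of any member. All 12 ratios of PGRMC1 were thus negative, but the probes put the largest difference on different gilts: array 3 for these 2 probes, and array 4 for the representative one, which gave its smallest ratio on array 3. With the marked spots kept, the 3 probes of PGRMC1 had fitted ratios of -0.76, -0.44 and -0.42, each with a limma adjusted p of 0.215. A negative ratio on every array measured was found for 11.9% of all tested probes.

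PGR and PGRMC1 ratios were set against each other within each array. The PGR ratio less the PGRMC1 ratio of the representative probes was 0.89, 1.24, 0.26 and 1.03 on arrays 1 to 4, the last with the marked PGRMC1 spot. With this PGRMC1 probe the gap was smallest on array 3 and positive on each array. The array order of the gap depends on the PGRMC1 probe. A_72_P601633 and A_72_P037486 had their most negative ratios on array 3, at -0.76 and -1.30. Their least negative ratios, -0.13 and -0.32, fell on array 4. Since the members were chosen with earlier results of these data known, the gap is a description and was not tested.

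PGRMC2, a relative of PGRMC1 that binds haem and serves as its carrier to the nucleus in mouse fat cells, did not show a clear direction. A_72_P232592 (PGRMC2, NM_001097521) had log2 intensities of 11.38, 11.52, 11.33 and 12.00 in pregnant gilts, against 11.63, 11.66, 11.54 and 11.82 in cyclic gilts on arrays 1 to 4. The pregnant gilt lay below her partner on arrays 1 to 3 and above her on array 4, where the spot was marked as an outlier. Its fitted log2 ratio was -0.18 ± 0.05 (SD, n = 3), with a 95% interval of -0.48 to 0.11 and a limma adjusted p of 0.416. The value was -0.10 with the array 4 spot kept and -0.06 with median centring.

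The second tested probe of PGRMC2, A_72_P638643, had ratios of 0.00, -0.10, -0.35 and 0.09 and a fitted value of -0.09 ± 0.19 (SD, n = 4), with a limma adjusted p of 0.661. The 2 untested probes of PGRMC2 carried outlier marks. A_72_P619535, marked on the 4 arrays, had 0.34, -0.42, 0.35 and -0.24, positive where the pregnant gilt was in Cy3 and negative where she was in Cy5. A_72_P562834, marked on arrays 1 and 3, had 0.10, -0.19, -0.59 and 0.04. Over the 16 ratios of PGRMC2, 9 were negative and 7 positive, and only on array 2 did the 4 probes share a sign.

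The estrogen receptor probes gave little signal, with the exception of 1 ESR1 probe. ESR1 was measured well above background in all 8 gilts by A_72_P444427 (ESR1, NM_214220) alone among its 4 probes. That probe had log2 intensities of 9.01, 8.78, 9.37 and 9.51 in the pregnant gilts of arrays 1 to 4, against 9.34, 8.67, 8.90 and 9.21 in their cyclic partners. The groups overlapped over most of their range, and the pregnant gilt was lower on array 1 and higher on arrays 2 to 4. The ratios were -0.33, 0.11, 0.47 and 0.30.

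The fitted log2 ratio of ESR1 was 0.13 ± 0.34 (SD, n = 4), with a 95% interval of -0.26 to 0.53 and a limma adjusted p of 0.67. The ratio was 0.33 without array 1 (limma adjusted p of 0.0736), a setting in which 3401 of 21826 tested probes passed and ESR1 did not. It turned to -0.07 without array 3. The interval takes in the size of the PGR value, so ESR1 was not shown to differ from PGR or to stay level.

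The 3 other ESR1 probes were dim, with raw signals of 35 to 97 in pregnant gilts and 37 to 97 in cyclic gilts. A_72_P491067 had a fitted ratio of 0.09 ± 0.14 and A_72_P077606 of -0.02 ± 0.19 (SD, n = 4 each), with limma adjusted p of 0.645 and 0.916. A_72_P441244 was above background in 3 of 4 gilts of each group, was not tested, and lay between -0.27 and 0.10. On array 3 the representative probe had 0.47 while A_72_P077606 had -0.31 and A_72_P441244 had -0.27, so the ESR1 probes disagreed most on that array.

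ESR2 was not detected. Its single probe A_72_P035406 (ESR2, NM_001001533) was above background in 0 of 4 pregnant and 0 of 4 cyclic gilts. The raw signal was 27 to 33.5 in pregnant gilts and 29 to 41 in cyclic gilts, over a local background of 31.5 to 44, so no fold is given. The spot lies in an area of array 4 that read dim, and it was as dim on the other arrays. Estrogen receptor beta RNA was therefore not measurable with this probe, which does not show that it was absent.

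**Figure D3:**
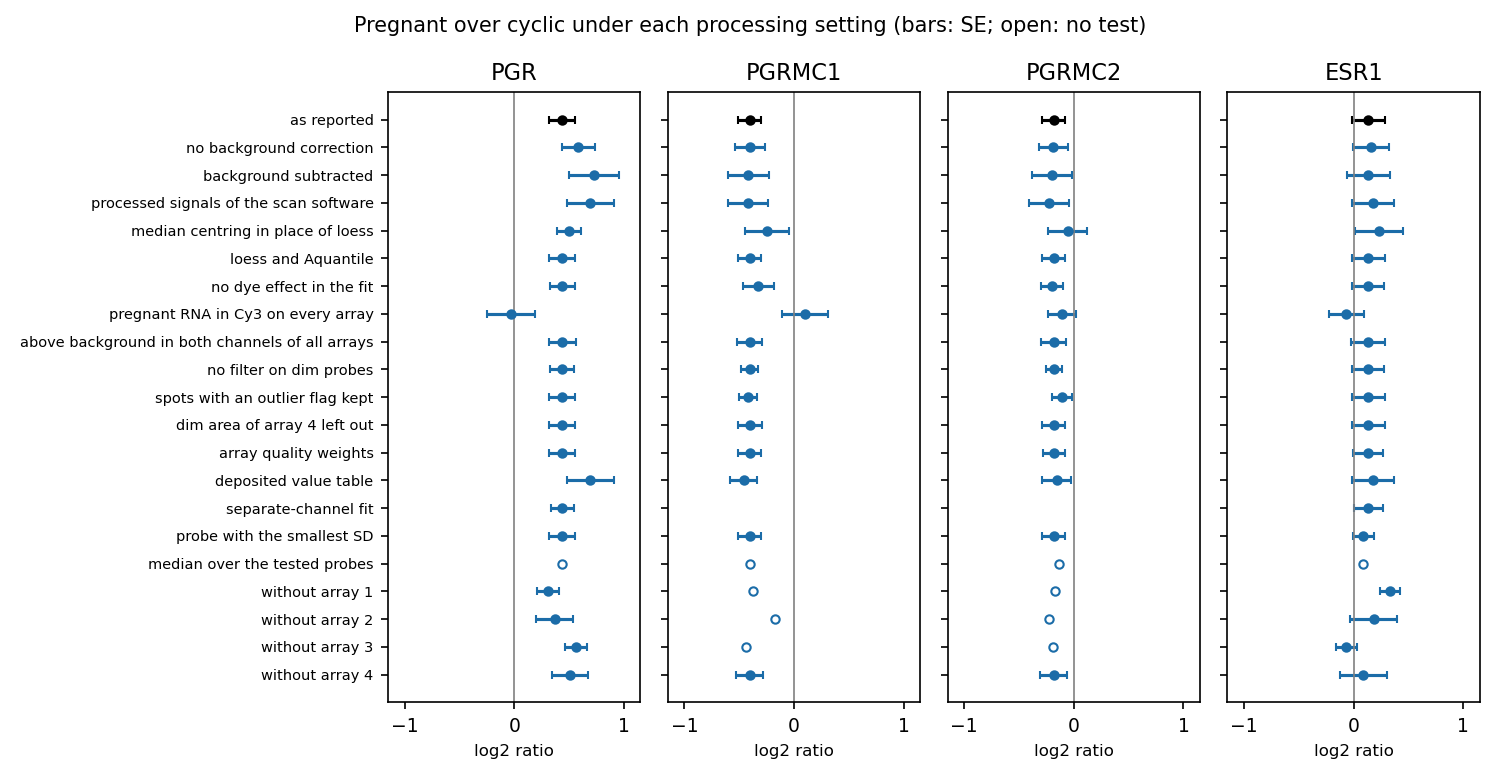
Log2 ratio of pregnant over cyclic for the representative probes of PGR, PGRMC1, PGRMC2 and ESR1 (panels) under each processing setting (rows), with the SE as a bar and open symbols where no test was made. With the dyes as labelled PGR stays between 0.31 and 0.73 and PGRMC1 between -0.46 and -0.17, and reading pregnant RNA as Cy3 on every array moves PGR to -0.03 and PGRMC1 to 0.10.

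The direction of these ratios rests on the dye labels. Sample by sample, the labels swap the dyes from array to array, while the labelling protocol can be read as Cy3 for pregnant RNA throughout. Under that reading PGR would be -0.03, PGRMC1 0.10, PGRMC2 -0.10 and ESR1 -0.07. The deposited value table turns its ratios as the sample labels do. With the dyes as labelled, the ratios of pairs of arrays had Pearson's r of 0.03 to 0.45 across the tested probes measured on 4 arrays. This is a description across probes of 1 slide, and the lowest values were those of array 4 with arrays 3 and 1.

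Among 1488 other named genes measured on the 4 arrays, the array pattern closest to that of PGR belonged to SLC7A2, IRAK4 and POU1F1. Likeness was the root mean square distance between the 4 log2 ratios, 0.09, 0.11 and 0.14 for these genes, where the median gene lay at 0.56. SLC7A2 is a transporter of cationic amino acids, IRAK4 a kinase below Toll-like receptors, and POU1F1 the transcription factor of the somatotroph, lactotroph and thyrotroph lineages. POU1F1 had ratios of 0.74, 0.51, 0.37 and 0.21 on arrays 1 to 4.

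Closest to PGRMC1, over the 3 arrays it had in the fit, were NQO1, a quinone reductase, IFRD2 and CAV1, the coat protein of caveolae, at distances of 0.06, 0.07 and 0.07 (median gene, 0.47). On array 4, which the distance did not use, CAV1 had 0.17 and IFRD2 -0.47. For PGRMC2 they were AAR2, SELENOK and PDE12, at 0.02 to 0.03 over 3 arrays (median gene, 0.30). For ESR1 they were CKM, DPPA5 and NPEPL1, at 0.07 to 0.12 over 4 arrays (median gene, 0.43). These are the nearest of many genes over few arrays, and no test was made of the likeness.

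The genes that work with these receptors were taken from 8 lists with 157 genes, of which 64 had a named probe and 48 were tested. Of the 48, 22 had a positive and 26 a negative ratio, with a median of -0.02, and 1744 tested named genes also had a median of -0.02. None of the 48 passed limma after adjustment, and 6 had an unadjusted limma p under 0.05, against 13.8% of all tested named genes. The 6 were 2 higher and 4 lower in pregnant gilts.

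**Figure D4:**
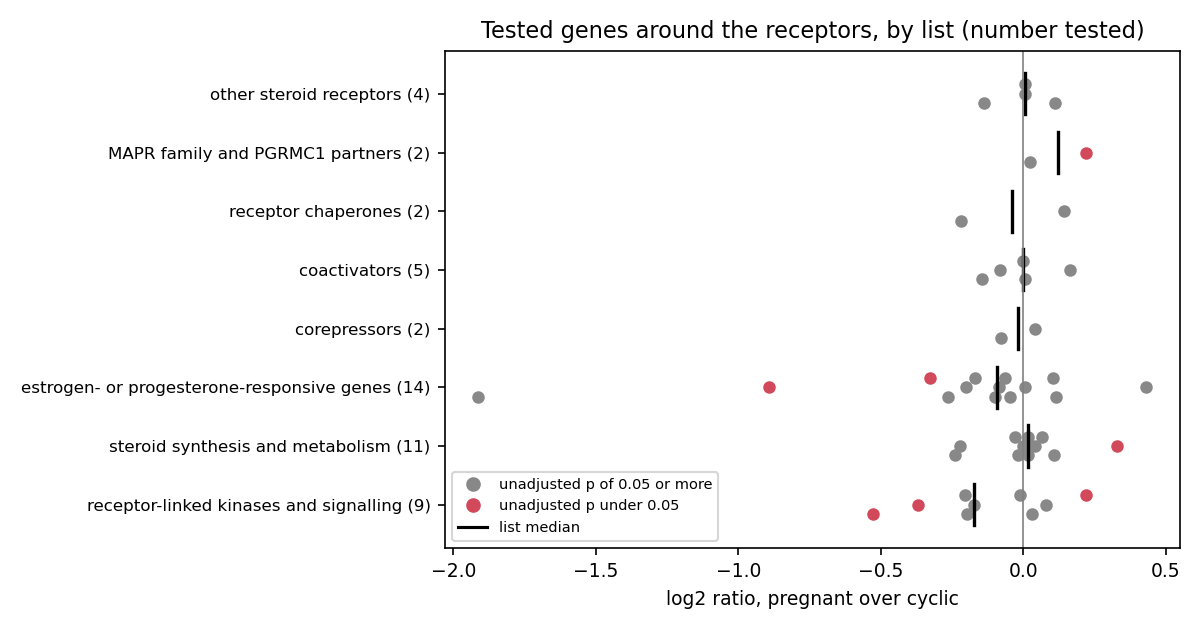
Fitted log2 ratio of pregnant over cyclic for each tested gene of the 8 lists (rows, number tested in brackets), coloured by unadjusted limma p, with the list median as a vertical line. The points farthest from 0 are FSHB at -1.91 and PRL at -0.89.

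Other steroid receptors lay close to 0. Of 4 tested, 3 were positive and 1 negative, with a median of 0.01. The glucocorticoid receptor NR3C1 had 0.01 ± 0.29 (SD, n = 4). The membrane progesterone receptors PAQR7, of the alpha type, and PAQR8, of the beta type, had -0.14 ± 0.47 and 0.11 ± 0.93 (SD, n = 4 each). PAQR8 rested on array 3, where it had 1.49, and the array 4 spot of PAQR7 lies in the dim area. GPER1, PAQR5 and NR3C2 had no named probe here.

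Chaperones and coregulators, which hold the receptors ready for hormone and pass their signal to the transcription machinery, were sparsely measured. Of 2 tested chaperones, HSP90AA1 had -0.22 ± 0.05 (SD, n = 3), though its 5 probes ran from -0.32 to 0.60, and PTGES3, the p23 cochaperone, had 0.14 ± 0.11 (SD, n = 4). Of 5 tested coactivators 2 were positive and 3 negative, with a median of 0.00. They included NCOA2 at -0.15 ± 0.23, NCOA3 at -0.08 ± 0.11, the acetyltransferase EP300 at 0.01 ± 0.06 (SD, n = 4 each) and CITED1, which binds ESR1, at 0.16 ± 0.42 (SD, n = 3). Of 2 tested corepressors 1 was positive and 1 negative, and NR0B1, an orphan nuclear receptor that acts as one, had 0.04 ± 0.37 (SD, n = 4), with its array 4 spot in the dim area. Of these 9 genes, 0 had an unadjusted limma p under 0.05, against 13.8% of all tested named genes. With 9 genes the count is not read as less than this background.

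Genes known to respond to estrogen or progesterone in the pituitary or elsewhere gave 4 positive and 10 negative ratios of 14 tested, with a median of -0.09, where 981 of the 1744 tested named genes were negative. An unadjusted limma p under 0.05, found for 13.8% of named genes, was found for 2 of the 14: PRL, prolactin, at -0.89 ± 0.83, and NQO1 at -0.33 ± 0.24 (SD, n = 4 each), with limma adjusted p of 0.234 and 0.258. The PRL ratios were -1.75, 0.01, -1.42 and -0.41 in array order, farther from 0 where the pregnant gilt was in Cy3. GNRHR, the receptor of gonadotropin-releasing hormone, had 0.43 ± 0.43 (SD, n = 4) and was positive on the 4 arrays, and its second tested probe gave 0.84. Its largest ratio, 0.98, fell on array 3, where PGR had its smallest. The gonadotropin subunit genes FSHB, LHB and CGA had -1.91 ± 1.52 (SD, n = 3), -0.20 ± 0.50 and -0.27 ± 1.06 (SD, n = 4 each). The CGA ratios were -1.19, 0.11, -1.04 and 1.06 in array order, negative where the pregnant gilt was in Cy3 and positive where she was in Cy5.

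Steroid synthesis and metabolism gave 7 positive and 4 negative ratios of 11 tested genes, with a median of 0.02. AKR1CL1, an aldo-keto reductase, had 0.33 ± 0.28 and alone had an unadjusted limma p under 0.05, of 0.0494, where 13.8% of named genes had one. CYP19A1, the aromatase that makes estrogen, had 0.11 ± 0.22, with its array 4 spot in the dim area, HSD17B4 -0.24 ± 0.36 (SD, n = 4 each) and HSD11B1, which activates glucocorticoids, -0.22 ± 0.44 (SD, n = 3). The 2 probes of AKR1CL1 gave 0.02 and 0.33, and those of HSD17B4 -0.24 and 0.28.

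Among kinases and other signalling genes linked to rapid steroid action, 3 of 9 were positive and 6 negative, with a median of -0.17. MAP2K1 had -0.53 ± 0.54, AKT1 -0.37 ± 0.37, IGF1R -0.17 ± 0.07 and the epidermal growth factor receptor gene EGFR 0.22 ± 0.20 (SD, n = 4 each). EGFR, whose protein PGRMC1 has been found to bind in human cancer cells, was positive on the 4 arrays, opposite in sign to PGRMC1. Its ratios were 0.41, 0.09, 0.37 and 0.01 on arrays 1 to 4, close to 0 where the pregnant gilt was in Cy5. A positive ratio on every array measured was found for 15% of all tested probes. With POR, the partner reductase of cytochromes P450, at 0.02 ± 0.21, EGFR made up the 2 tested genes of the PGRMC1 partner list. The unadjusted limma p was under 0.05 for MAP2K1 (0.00721), EGFR (0.0364) and AKT1 (0.0439), 3 of 9, against 13.8% of all tested named genes. The MAP2K1 ratios were -0.91, -0.38, -0.99 and 0.18 on arrays 1 to 4, farther from 0 where the pregnant gilt was in Cy3. Its 4 tested probes ran from -0.67 to -0.09.

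The tissue label was checked against markers. All 7 hormone genes of the anterior lobe were tested, and so were well above background on the 4 arrays in at least 1 group. Markers of the neural and intermediate lobes were present too, with 4 of 7 genes tested and a mean log2 intensity of 9.21 to 10.19 in pregnant and 9.40 to 10.19 in cyclic gilts. Gonadotroph markers, of the cells in which pituitary PGR is best known, had 2 positive and 3 negative ratios of 5. Their list mean was -0.52, -0.57, -0.42 and 0.27 on arrays 1 to 4, and it held FSHB at -3.36, -1.99 and -0.32 on arrays 2 to 4, with no value on array 1, beside GNRHR, which was positive on the 4 arrays. Of 8 stromal and pericyte markers 4 were tested. The 3 negative ones, SPARC, ACTA2 and FBN1, each had an unadjusted limma p under 0.05, found for 13.8% of named genes. DCN was positive, at 0.22. The array 4 spot of ACTA2 lies in the dim area, and the 3 tested probes of FBN1 ran from -0.30 to 0.11. The list had a median of -0.33 and a list mean of -0.06, -0.38, -0.45 and -0.01 on arrays 1 to 4. Its mean log2 intensity was 10.09 to 10.43 in pregnant and 10.11 to 10.79 in cyclic gilts. Endothelial markers had 1 positive and 2 negative ratios of 3, and folliculostellate and stem cell markers 0 and 2 of 2. Proliferation markers had 0 positive and 4 negative ratios of 4, with a median of -0.75 and a list mean of -0.06, -0.71, -1.58 and -0.07 on arrays 1 to 4. Somatotroph markers had 2 of each sign. SSTR5 at 1.23 and POU1F1 at 0.46 were positive on the 4 arrays. Both had an unadjusted limma p under 0.05, found for 13.8% of named genes. GHRHR had -0.08 and the hormone gene GH1 -0.01, both negative where the pregnant gilt was in Cy3 and positive where she was in Cy5. POU1F1 is also on the lactotroph list, beside PRL at -0.89. Thyrotroph markers had 1 positive and 2 negative ratios of 3. The hormone gene TSHB, at -0.02 ± 4.66 (SD, n = 4), had -0.15, -4.85, 6.30 and -1.36 on arrays 1 to 4. Its ratio thus differed widely between the pairs of gilts. The part of these lists in the receptor ratios was not tested. The erythrocyte list had no named probe.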

How the data were processed

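The deposited scanner files hold, per the file headers, spot and background intensity in Cy3 and Cy5, read by Agilent Feature Extraction 10.7.3.1 from design 026440, with flags of 0 or 1. Processed intensities and their log10 ratio are deposited in the same files. The deposited value table holds log2 ratios that equal log2 of the processed signals, turned by the sample labels (slopes of -1, 1, -1 and 1 on Cy5 over Cy3); its column medians were 0.07, -0.08, -0.18 and -0.17, and the sources used here name no software for it. The 4 arrays lie on 1 slide and 1 scan.

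Background correction was normexp (median signal and background, offset 50). Ratios were normalised by loess within arrays (control spots at weight 0), cleared of outlier-marked spots and averaged per probe. Levels in single gilts also had Aquantile scaling and kept marked spots. limma 3.58.1 in R 4.3.3 fitted the group difference and a dye effect over 21616 probes, 19869 on 4 arrays and 1747 on 3. With 3 arrays, 1 dye orientation rests on a single array. Well above background were 47.5% to 71.8% of spots per channel, with 0 spots saturated, and precision is limited by the 4 arrays. The fit was tested on simulated data.

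Each gene is shown by the brightest of its tested probes, by mean intensity. Fitted ratios stand before the ± and the SD of the fitted arrays after it. Genes were named by RefSeq accession, 5578 of 43603 probes. The text names the members, up to 4 genes per list with the smallest p, listed hormone genes, and 3 genes nearest each member (some genes are not reported here), over 3 arrays in place of 4 for PGRMC1 and PGRMC2, whose array 4 spot was marked. The members and lists were chosen with earlier results of these data known.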

Additional observations from a re-analysis of the deposited data

Results flagged for a closer look

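Among 39 sets of 4 values (the ratios, and the levels in each group, of the 13 probes), 1 had an end value whose gap passed Dixon's limit; about 1 set in 20 does so by chance, which is 1.95 of these sets. It was the ESR2 ratio on array 1, at -0.0022 against 0.02 on each of arrays 2 to 4. The probe was below background in all 8 gilts, so this gap concerns differences between background readings.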

How the results depend on the processing

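With the dyes as labelled and all 4 arrays, PGR, PGRMC1, PGRMC2 and ESR1 kept their sign under every alternative that gave a value. None passed limma under any of them. PGR ran from 0.44 to 0.73, with its smallest limma adjusted p, 0.0542, in a separate-channel fit of the 8 gilts. PGRMC1 ran from -0.46 to -0.25, PGRMC2 from -0.23 to -0.06 and ESR1 from 0.09 to 0.23. Several alternatives could not move PGR, whose 1 probe had no marked spot and lay outside the dim area. Those on marked spots, the dim area, filters, Aquantile, the dye effect in the fit and the choice of probe left it at 0.44. The dim area, the filters, Aquantile and array quality weights likewise left PGRMC1 at -0.40, PGRMC2 at -0.18 and ESR1 at 0.13. A kept sign under settings that leave a value unchanged says nothing of its stability. For PGR, the processed signals and the deposited value table gave the same 0.69. With pregnant RNA read as Cy3 on every array, PGR was -0.032, PGRMC1 0.10 and ESR1 -0.067. Leaving out 1 array at a time gave 0.31 to 0.56 for PGR, -0.43 to -0.17 for PGRMC1, -0.23 to -0.17 for PGRMC2 and -0.065 to 0.33 for ESR1, where the value below 0 is that without array 3. PGRMC1 and PGRMC2, with 3 arrays, have no test in 3 of these 4 settings and no value in the separate-channel fit, which used probes complete on 4 arrays. ESR2 was not tested; without the filter on dim probes its ratio was 0.01.

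The count of 0 probes past the threshold became 1 without background correction, 2 without a dye effect, 1 with array quality weights and 1047 in the separate-channel fit. It ran from 0 to 3401 on leaving out 1 array, the highest being without array 1 and the next, 4, without array 3. At an unadjusted p under 0.05 stood 3904 probes, against 2556 with median centring, 1011 with pregnant RNA read as Cy3 throughout, and 895 to 7068 on leaving out 1 array. The share of higher among them was 57.8%, 82.2% with median centring and 40.2% with the Cy3 reading. Of the list genes 0 passed, 2 (PRL and MAP2K1) in the separate-channel fit, and 0 to 4 on leaving out 1 array, the 4 without array 1. Positive among them were 22 of 48, and 13 of 40 without array 3. The causes were not tested. The fitted ratios are paired values of the gilts on 1 array. Signal over background was low for PGR, for 3 of the 4 ESR1 probes and for ESR2, and outlier marks fell on PGRMC1 and PGRMC2.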
